A study of Mus musculus with 222 samples.

Results

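Mammary tumors of MMTV-ErbB2 mice were divided by how strongly they expressed 5 genes that cells induce when oxygen is short. A hypoxia score was made for each of 188 tumors as the mean of the z-scores of Car9, Adm, Egln3, Ndrg1 and Ankrd37, each read from its 1 probe set. The 47 tumors with the highest scores (score-high) were compared with the 47 with the lowest (score-low), out of 222 arrays in all. The score scaled each gene over the 188 tumors, which were all tumors with a wide spread of array values (an interquartile range of at least 2.8). Arrays with names ending in R, read here as repeat arrays, were left out. Because the groups were chosen by measured values, the 5 score genes are described below without a test.

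Expression in spontaneous tumors of female mice was read on Affymetrix mouse gene arrays, 1 tumor on each array, as log2 values. All tumors of both groups carried the ErbB2 transgene under the MMTV 3′ promoter, which directs it mainly to mammary epithelium. The genetic background was F1BX (the backcross of C57BL/6 x FVB/N mice to FVB/N) in 34 score-high and 35 score-low tumors, F1 (C57BL/6 x FVB/N) in 7 score-high and 4 score-low tumors, and FVB/N in 6 score-high and 8 score-low tumors. Neither the age of the mice nor the oxygen or blood supply of any tumor was in the labels, so the groups are called score-high and score-low tumors and not hypoxic and well supplied tumors. The samples were pieces of whole tumor, in which fewer cells of a type and less RNA per cell cannot be told apart.

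Cells sense oxygen through prolyl hydroxylases, among them the products of Egln1 and Egln3, which mark the alpha subunits of hypoxia inducible factor (HIF) for removal by the VHL ubiquitin ligase. When oxygen falls, the alpha subunit is kept, pairs with ARNT and switches on genes for glucose uptake, glycolysis, acid export, vessel growth and matrix modification. Tumors that outgrow their vessels often carry this program, although an oncogene or a lost regulator can also switch it on in well oxygenated cells.

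The spread of array values differed slightly between the groups, with an interquartile range of 3.24 ± 0.057 in score-high tumors and 3.19 ± 0.061 in score-low tumors (SD, n = 47 each). Over the 188 tumors the score correlated with this range at r = 0.32 and with the array median at r = -0.084, given as descriptions. The fit was therefore repeated with the array spread as a term. Erbb2 itself, the transgene's gene, had lowest, median and highest log2 values of 11.94, 12.38 and 12.74 in score-high tumors and 9.32, 12.50 and 12.82 in score-low tumors. Its difference of -0.08 did not pass (adjusted p = 0.52 from limma).

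The score ran without a gap across the tumors. It was 0.62, 0.93 and 2.20 (lowest, median, highest) in score-high tumors, against -1.50, -0.89 and -0.62 in score-low tumors. The last tumor inside the score-high group, F23T1, scored 0.620 and the first outside it, 178T2, scored 0.614. At the other edge 046T1 scored -0.615 inside the score-low group and 117T5 scored -0.600 outside it. The division is thus a range on a continuous scale of the score, and whether the tumors form separate types was not tested.

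**Figure D1:**
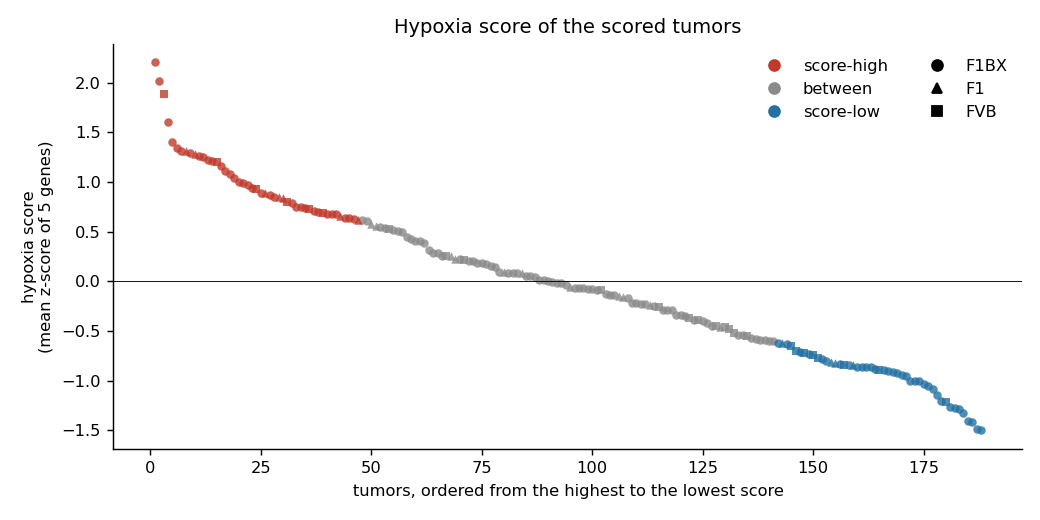
Hypoxia score (y axis, mean z-score of 5 genes) of the 188 scored tumors, ordered from the highest to the lowest score (x axis), with colors for the groups and shapes for the genetic backgrounds. The scores run without a gap from 2.20 to -1.50, and all 3 backgrounds occur in both groups.

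Tumors of the same mouse were no more alike in score than tumors of different mice. Of the mice, 38 gave more than 1 scored tumor, 95 tumors in all, and the scores of these tumors differed within a mouse by 0.33 to 3.15, with a median range of 1.37. The intraclass correlation of the score by mouse was -0.24, where values at or under 0 mean no likeness within mice. In 13 mice, tumors fell into both groups. The number after the T in a tumor's name was not balanced between the groups, as score-high tumors were more often numbered T1. In most of these 13 mice the score-high tumor had the lower number, but not in mice 187 and 246. Tumor number was not a term in any fit, so its part in the differences was not tested. By background, the mouse means of the score averaged 0.057 ± 0.66 in F1BX (SD, n = 93 mice), 0.26 ± 0.52 in F1 (n = 16) and -0.070 ± 0.74 in FVB mice (n = 22). None of the 3 differences passed a two-sided permutation test over mice. The largest, F1 minus FVB, was 0.33 (p = 0.133, adjusted p = 0.36 over the 3 pairs). Tumors 051T1 (labelled F1) and 063T1 (labelled FVB/N) have names that do not match their labels, and the labels were followed. Without these tumors the F1 minus FVB difference was 0.28 (permutation test p = 0.217, adjusted p = 0.478).

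Among the score genes, Adm encodes adrenomedullin, a peptide that widens vessels. It had lowest, median and highest log2 values of 9.36, 10.80 and 12.42 in score-high tumors and 7.60, 8.51 and 9.94 in score-low tumors. Car9, a carbonic anhydrase at the cell surface, had 8.25, 9.47 and 10.93 in score-high tumors and 7.13, 8.17 and 9.12 in score-low tumors. The oxygen sensor gene Egln3 had 12.20, 12.63 and 13.25 in score-high tumors, against 10.86, 11.98 and 12.47 in score-low tumors. Each gene overlapped between the groups, and 44 score-high tumors exceeded every score-low tumor for Adm, 35 for Car9 and 35 for Egln3. Ndrg1, a gene of stress and differentiation, had medians of 11.49 in score-high and 9.77 in score-low tumors, and Ankrd37, which encodes a small ankyrin repeat protein, had medians of 8.72 in score-high and 7.87 in score-low tumors.

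The 5 genes varied together but not tightly, with pairwise correlations over the 188 tumors of 0.36 (Egln3 with Ndrg1) to 0.65 (Adm with Ndrg1), on points that share arrays and mice. When the tumors were divided again by the other 4 genes, 40 to 44 of the 47 tumors of each score-high group stayed in it. The gene left out then had medians of 10.75 in score-high and 8.58 in score-low tumors for Adm, and of 9.21 in score-high and 8.25 in score-low tumors for Car9. Egln3 had 12.59 in score-high and 12.02 in score-low tumors so defined.

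The tested differences are for genes outside the score, fitted in limma with the mouse as a random block and the background as a term. With the 5 score probe sets set aside, 35551 probe sets were tested, and 3489 (9.81%) were higher and 3952 (11.1%) were lower in score-high tumors at an adjusted p under 0.05. Under a stricter threshold, an adjusted p of 0.005 or less with a change of 2-fold or more, 35 probe sets (0.0985%) were higher and 35 (0.0985%) were lower. These p-values say how firmly a probe set moved with the score across these tumors. The median log2 difference over the 19933 genes tested was -0.02, and 2291 genes were higher and 2472 lower.

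Among genes with 1 symbol, predicted genes and Riken clones aside, the 15 largest increases were those of Pgf, Mgarp, Ak4, Smtnl2, Eno2, Ero1a, Bnip3, Ddit4, Trpm3, Higd1a, Cd177, Pfkfb3, Mmp12, Plod2 and Pglyrp1, with log2 differences from 2.06 for Pgf to 1.23 for Pglyrp1. Of these 15, Ak4, Ero1a, Bnip3, Ddit4, Higd1a, Pfkfb3 and Plod2 were in the list of HIF targets below. The Riken clone 2610528A11Rik, named after its values were seen, had a larger difference, with 8.83, 10.92 and 12.53 in score-high tumors and 7.02, 8.42 and 9.80 in score-low tumors (log2 difference 2.37, limma adjusted p = 7.06e-23). In a list of 40 known HIF target genes outside the score, 38 were measured, 29 were higher, 1 was lower and 8 did not pass, and the median log2 difference was 0.50, against -0.02 over all genes. The mean level of the list was 9.518, 9.84 and 10.18 (lowest, median, highest) in score-high tumors and 8.97, 9.23 and 9.514 in score-low tumors. The same 29 were higher with the array spread as a term, and 25 of them were with the mouse as a fixed term.

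**Figure D2:**
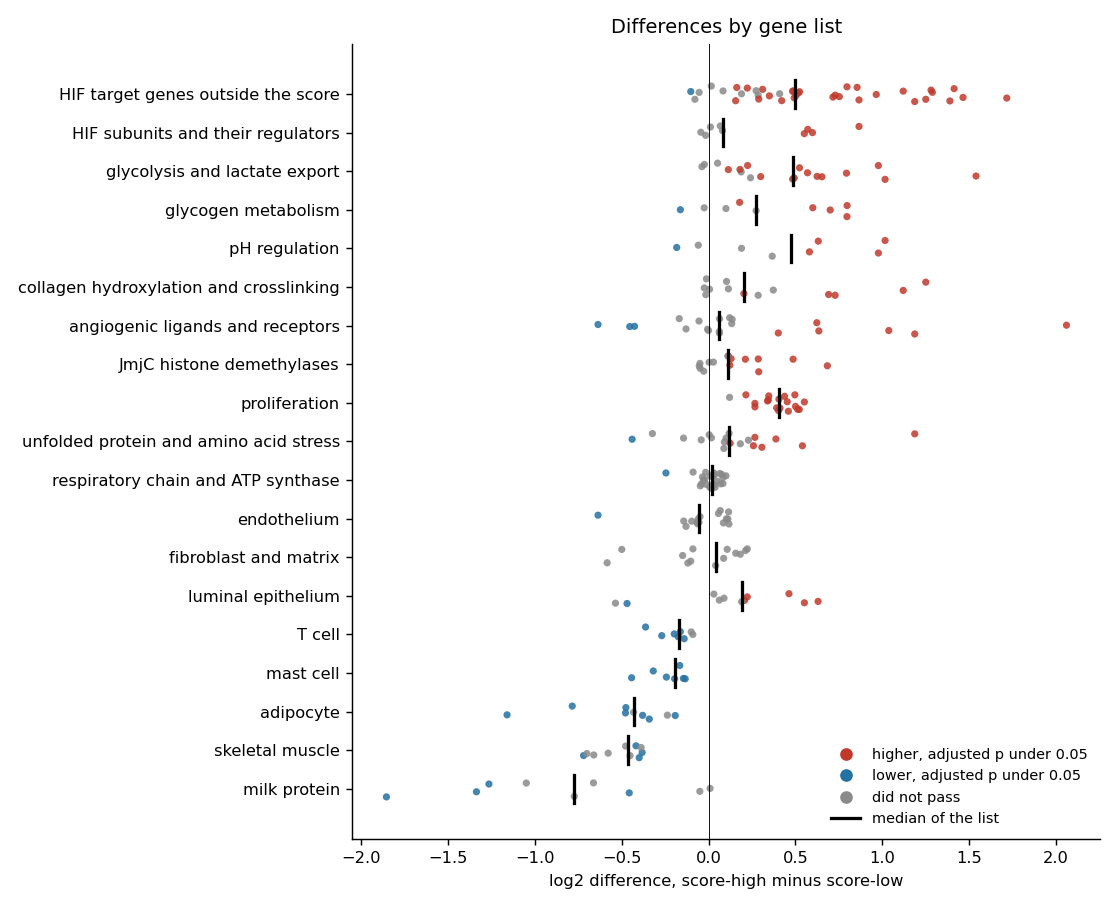
Log2 difference between the score-high and score-low tumors (x axis) of each measured gene, 1 point per gene, by gene list (y axis). Red points were higher and blue points lower at an adjusted p under 0.05, grey points did not pass, and the black bar is the median of the list. HIF targets and glycolysis lie mostly right of 0, respiratory chain and endothelial genes close to 0, and adipocyte, muscle and milk protein genes mostly left of 0.

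Vegfa, the main growth factor of blood vessels, separated the groups completely. It had lowest, median and highest log2 values of 10.58, 10.97 and 11.62 in score-high tumors and 8.98, 9.89 and 10.46 in score-low tumors. Every score-high tumor lay above every score-low tumor. Of the 35551 probe sets tested, this was the 1 probe set higher in score-high tumors with no overlap (0.00281%), and none was lower with no overlap (0.0%). Vegfa was 2.28-fold higher, which is 1.19 on the log2 scale (limma adjusted p = 7.08e-28, standard error 0.07).

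The other targets of large size overlapped between the groups. Ak4, a mitochondrial adenylate kinase, had 8.48, 9.22 and 10.38 in score-high tumors and 6.18, 7.61 and 9.03 in score-low tumors, a log2 difference of 1.72 (limma adjusted p = 2.82e-24, standard error 0.11). Ero1a, an oxidase of the endoplasmic reticulum that forms disulfide bonds, had 10.90, 12.09 and 12.94 in score-high tumors and 9.83, 10.48 and 11.67 in score-low tumors (log2 difference 1.46, adjusted p = 3.51e-24). Bnip3, which drives removal of mitochondria, had 10.47, 11.50 and 12.40 in score-high tumors and 9.39, 9.92 and 11.85 in score-low tumors (log2 difference 1.41, adjusted p = 5.07e-21). In Bnip3 a few score-low tumors reached the score-high tumors, since 8 score-high tumors exceeded all score-low tumors but 39 score-low tumors lay below all score-high tumors. Its relative Bnip3l was higher by 0.52 on the log2 scale. Ddit4, an inhibitor of mTOR complex 1, was higher by 1.39 and Higd1a, a mitochondrial protein of the respiratory chain's assembly, by 1.29. Fam162a, a mitochondrial protein linked to cell death, was higher by 0.97.

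Regulators of gene activity in the list moved too. Bhlhe40, a transcriptional repressor, was higher by 0.85 and Mxi1, an antagonist of MYC, by 0.35 on the log2 scale. Kdm3a was higher by 0.49 and Kdm4b by 0.29, and both encode histone demethylases that need oxygen. Of a list of 15 genes of the JmjC family, 8 were higher and none lower, with a median of 0.11 (9.81% and 11.1% over all probe sets). Among them Jmjd6 had 0.68, and Kdm5b had 0.29. Secreted and membrane products included Stc2 (0.75), Vldlr (0.72) and Mif (0.50), all higher, and Hilpda, a lipid droplet protein, was higher by 0.42. Not every known target followed the score. Angptl4 had medians of 8.07 in score-high and 8.09 in score-low tumors (adjusted p = 0.764 from limma), and Stc1 had 7.40 in score-high and 7.52 in score-low tumors (adjusted p = 0.621). Car12, Lox, Hmox1, Ppp1r3c, Pfkfb4 and Zfp395 also did not pass. Ppfia4 was lower by 0.10 (adjusted p = 0.028), a call lost with the array spread as a term (adjusted p = 0.418).

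Of 9 HIF subunits and regulators, 4 were higher and none lower, where 9.81% of all probe sets were higher and 11.1% lower. Egln1, the main prolyl hydroxylase gene, had 9.36, 10.25 and 10.88 in score-high tumors and 8.87, 9.34 and 10.26 in score-low tumors (log2 difference 0.87, adjusted p = 1.12e-20 from limma). Vhl had 8.58, 9.01 and 9.71 in score-high tumors and 8.12, 8.48 and 9.0 in score-low tumors (log2 difference 0.57, adjusted p = 2.65e-17). Hif1a was higher by 0.55 and Arnt2 by 0.60. Epas1, the gene of HIF-2 alpha, had medians of 8.81 in score-high and 8.83 in score-low tumors (adjusted p = 0.545). Egln2, Hif1an, Arnt and Hif3a did not pass either.

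**Figure D3:**
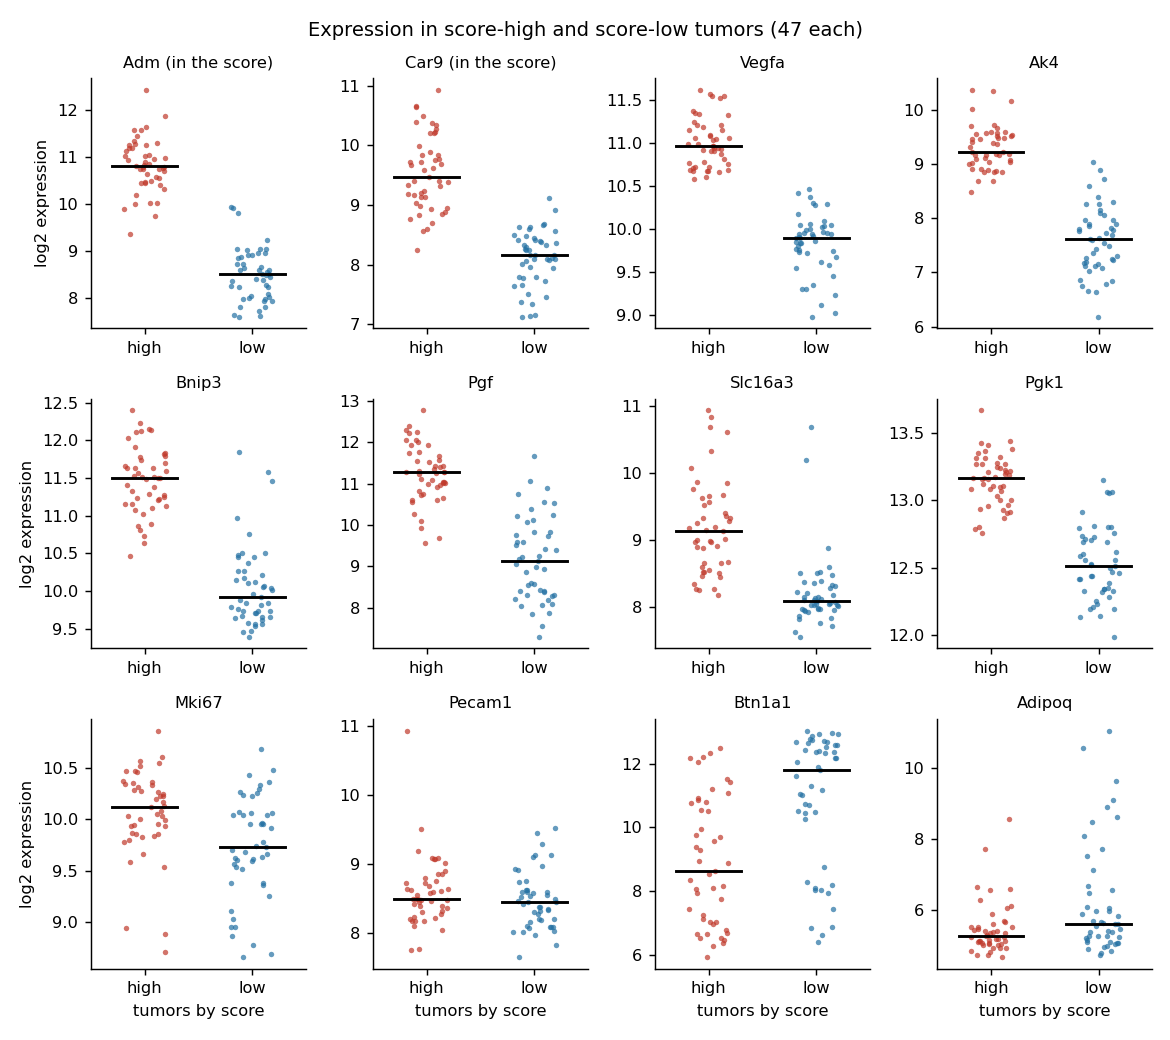
Log2 expression (y axes) of 12 genes in the 47 score-high and the 47 score-low tumors, 1 point per tumor, with a bar at the median. Vegfa has no overlap, Ak4, Bnip3 and Pgk1 overlap in part, Pecam1 has nearly the same median in both groups (8.49 in score-high, 8.46 in score-low), and Btn1a1 and Adipoq spread widely in both.

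HIF binds DNA at the core motif ACGTG, and promoters of the genes that moved were searched for it. Sequences were the 300 bases around each start (250 before and 50 after) from RefSeq on GRCm38.p6, read on both strands, where the motif on the other strand reads CACGT and CACGTG counts on both. The motif was in 19.6% of the 32851 promoters and in 24.4% of 15610 measured genes. It was in 18 of the 24 HIF targets called higher that have a sequence, and in 20 of 28 measured ones. Of all genes at least 2-fold higher it was in 12 of 24, and of those at least 2-fold lower in 3 of 13. Among the 4 score genes with a sequence it was in Car9, Egln3 and Ankrd37 and not in this window of Adm. A match is only a run of letters and binding was not measured. The stretches below are shown because they hold the match nearest before the start in 2 score genes and 6 of the genes that were higher, with the motif in capitals.
Car9 (chr4:43506988-43507025, + strand): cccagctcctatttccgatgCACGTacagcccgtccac
Ankrd37 (chr8:45999851-45999876, - strand): gcacatgtcagtgtttgggtACGTGa
Egln1 (chr8:124949298-124949342, - strand): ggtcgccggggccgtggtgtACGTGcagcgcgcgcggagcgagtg
Bnip3 (chr7:138909589-138909633, - strand): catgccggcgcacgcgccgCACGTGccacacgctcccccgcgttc
Ero1a (chr14:45318611-45318655, - strand): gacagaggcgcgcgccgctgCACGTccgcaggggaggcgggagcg
P4ha1 (chr10:59323260-59323295, + strand): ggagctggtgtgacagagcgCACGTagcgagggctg
Fam162a (chr16:36071618-36071662, - strand): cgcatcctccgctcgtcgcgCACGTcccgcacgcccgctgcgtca
Pgk1 (chrX:106186949-106186993, + strand): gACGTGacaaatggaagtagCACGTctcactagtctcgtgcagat
Counted from -1 just before the start, the match nearest to it began at -18 in Car9, -6 in Ankrd37, -68 in Egln1, -107 in Bnip3, -63 in Ero1a, -16 in P4ha1, -81 in Fam162a and -131 in Pgk1.

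Of 19 measured genes of glycolysis and lactate export, 14 were higher and none lower, with a median log2 difference of 0.48. The shares over all probe sets were 9.81% higher and 11.1% lower. The glucose transporter Slc2a1 was higher by 0.49 and the hexokinase Hk2 by 0.52. Pfkfb3, which makes the activator of phosphofructokinase, had 8.64, 9.84 and 10.84 in score-high tumors and 7.36, 8.35 and 10.73 in score-low tumors (log2 difference 1.28, adjusted p = 1.06e-12 from limma). Pgk1 had 12.76, 13.16 and 13.67 in score-high tumors and 11.98, 12.51 and 13.15 in score-low tumors (log2 difference 0.62, adjusted p = 1.8e-19), so its change was small beside that of Pfkfb3 but overlapped less. Pgam1 was higher by 0.65, Tpi1 by 0.57, Pfkp by 0.79 and Pkm by 0.30. Eno2, the enolase best known from neurons, was higher by 1.54, while Ldha, at a high level in every tumor, was higher by 0.18. The lactate exporter gene Slc16a3 was higher by 0.98 and Slc16a1 by 1.02, and Bsg, the chaperone of these transporters, by 0.63. With the array spread as a term 13 of the 19 were higher, and with 1 array per mouse 11 were. The setting with 1 array per mouse left out the 13 mice with tumors in both groups.

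In glycogen metabolism 5 of 9 were higher and 1 lower, with a median of 0.27 (4 higher and 1 lower with the spread term). The synthase gene Gys1 was higher by 0.70, the branching enzyme Gbe1 by 0.80 and the phosphoglucomutase Pgm1 by 0.80. Pdk1, whose product keeps pyruvate out of mitochondria, was higher by 0.48. Of 27 measured genes of the respiratory chain and ATP synthase none was higher and 1 was lower in limma, and their median was 0.02. The lower gene was Sdhb, a subunit of complex II, with a log2 difference of -0.25 (adjusted p = 0.00600). No gene of this list passed with the mouse as a fixed term or with 1 array per mouse. In the TCA cycle 1 of 15 genes was higher and 2 were lower, among them Ogdh with -0.22. None of the 15 passed with the mouse as a fixed term. Over all probe sets 9.81% were higher and 11.1% lower.

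Of 13 measured genes for hydroxylation and crosslinking of collagen, 5 were higher and none lower, with a median of 0.20. The shares over all probe sets were 9.81% higher and 11.1% lower. The prolyl hydroxylase genes P4ha1 and P4ha2 were higher by 0.73 and 1.12, and the lysyl hydroxylase genes Plod1 and Plod2 by 0.69 and 1.25. Plod2 had 8.83, 10.45 and 11.47 in score-high tumors and 7.21, 9.12 and 10.88 in score-low tumors (adjusted p = 3.59e-10 from limma). The P4hb gene, which encodes the partner subunit, was higher by 0.20. None of 13 fibroblast and matrix genes passed in either direction, and their median was 0.04.

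Of 20 angiogenic ligands and receptors, 6 were higher and 3 lower, with a median of 0.06 (6 and 2 with the spread term). With the mouse as a fixed term 4 were higher and 1 was lower. Pgf, placental growth factor and a relative of Vegfa, had the largest difference of the tested genes named by rule, with 9.57, 11.28 and 12.77 in score-high tumors and 7.29, 9.13 and 11.66 in score-low tumors (log2 difference 2.06, limma adjusted p = 6.65e-17, standard error 0.18). Angpt2, which destabilizes vessels, was higher by 1.04, Apln by 0.63 and Esm1, a marker of sprouting tips, by 0.62. The receptor gene Tek had a log2 difference of -0.64, and Aplnr and the ligand Vegfd had -0.43 and -0.45. Of 16 endothelial genes none was higher and Tek alone was lower in limma, at a median of -0.05. None of the 16 passed with the mouse as a fixed term. Over all probe sets 9.81% were higher and 11.1% lower. For such short lists, the counts of lower genes lie near or under that share. Pecam1 had 7.76, 8.49 and 10.94 in score-high tumors and 7.65, 8.46 and 9.52 in score-low tumors (log2 difference 0.10, adjusted p = 0.464). Its highest value came from a single score-high tumor, and the rest of both groups overlapped. These levels do not measure vessel density or perfusion.

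**Figure D4:**
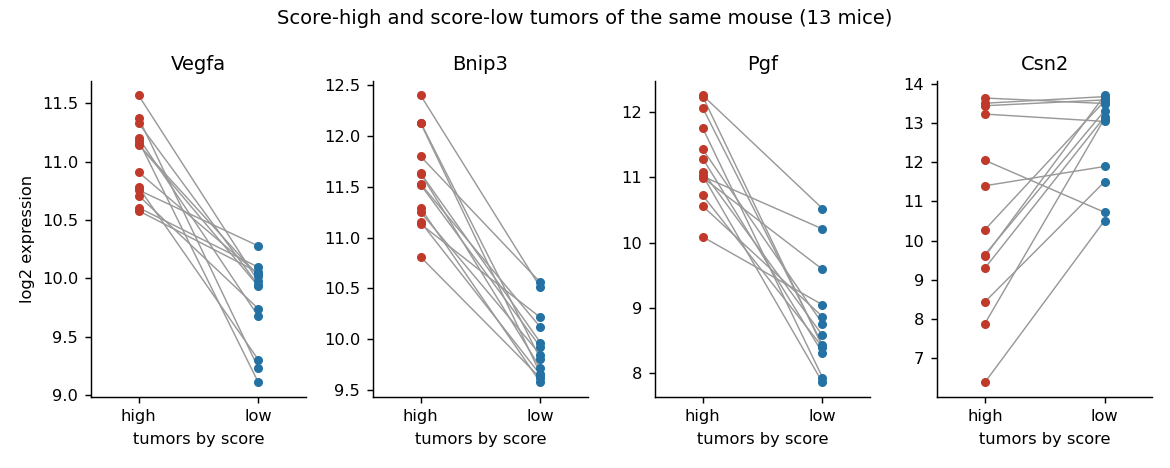
Log2 expression (y axes) of Vegfa, Bnip3, Pgf and Csn2 in mice with tumors in both groups, with the mean of a mouse's score-high tumors on the left and of its score-low tumors on the right, 1 line per mouse. Vegfa, Bnip3 and Pgf are higher in the score-high tumors of 13 of 13 mice, and Csn2 in 3 of 13.

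In the 13 mice with tumors in both groups, the Vegfa difference within a mouse averaged 1.22 ± 0.55 on the log2 scale (SD, n = 13 mice), that of Bnip3 1.64 ± 0.44 and that of Pgf 2.43 ± 1.03. Each was higher in the score-high tumors of all 13 mice. The smallest Vegfa difference was in mouse 246, with 10.76 in its score-high and 10.28 in its score-low tumor, and the widest was in mouse 187, with 11.37 in its score-high and 9.23 in its score-low tumor. Of the 38 measured HIF targets, 13 (34.2%) were higher within all 13 mice and 26 (68.4%) within at least 10 mice, against 0.509% and 10.6% of all probe sets tested. All 26 were among the 29 called higher, and of the 3489 probe sets called higher 4.90% were higher within all 13 mice and 60.9% within at least 10. These mice are part of the tumors that gave the calls, so this describes the same data at the level of the animal. In most of these mice the score-high tumor also had the lower tumor number, and the part of that was not tested. Several other lists, described below, held fewer calls with the mouse as a fixed term.

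The tumors between the groups entered neither of them. Over these tumors, 96 probe sets (0.27%) had a positive slope on the score and 8 (0.0225%) a negative slope at an adjusted p under 0.05, a comparison added after the data were seen. Of the 38 HIF targets, 9 passed, all with a positive slope. They were Ak4, Ero1a, Bnip3, Ddit4, Vegfa, Gbe1, Fam162a, Hilpda and Mif. Scaled to the distance between the groups, the Vegfa slope was 1.20 (adjusted p = 3.67e-05 from limma) and that of Ak4 was 1.74. None of the 19 proliferation genes passed there, at a scaled median of 0.64.

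A further 24 tumors, 18 F1BX and 6 F1 from 24 mice by name, had narrow array values (interquartile range 2.33 to 2.62) and were outside the score's tumors. The labels do not settle whether F1_6T1 and F1_27T1 came from the mice of the scored tumors F06T1 and F27T1. In the 24 tumors the score was made again from their own values, and each probe set was fitted on it. Besides the score genes, 3 probe sets (0.00844%) passed with a positive slope and none (0.0%) with a negative one, while 1611 positive and 1224 negative slopes had an unadjusted p under 0.05 in limma. The 3 were 1 of Vegfa and both probe sets of Ak4. Vegfa had lowest, median and highest values of 9.32, 10.01 and 11.08 in these tumors and rose by 0.63 on the log2 scale per unit of the score (standard error 0.11, adjusted p = 0.0368). Ak4 had 6.19, 7.42 and 9.42 and rose by 1.18 per unit (standard error 0.13, adjusted p = 1.96e-04). Of the 38 HIF targets, 29 had a positive slope, and their median slope was 0.27. Over all probe sets 50.5% of slopes were positive. At an unadjusted p under 0.05, 20 of the 38 were positive and none was negative, against 4.53% of all probe sets that were positive. Of the 10 keratinizing epithelium genes, 1 was higher and 2 were lower between the groups (none with the spread term), while here all 10 slopes were positive, 8 of them at an unadjusted p under 0.05. Of the 16 endothelial genes 1 slope was positive and 3 negative slopes had an unadjusted p under 0.05. Whether these slopes differ from the differences between the groups was not tested.

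**Figure D5:**
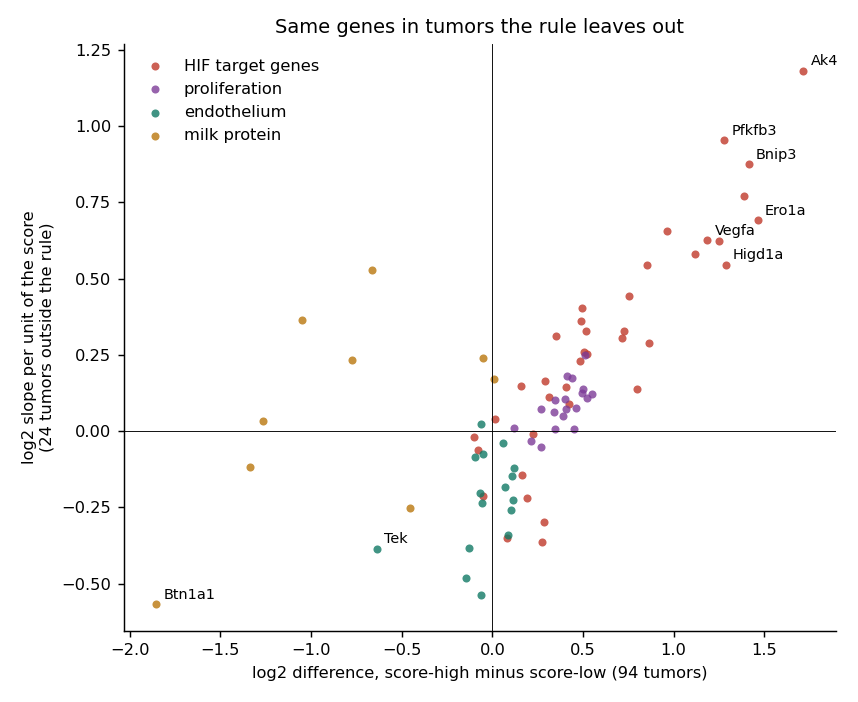
Log2 difference between the groups (x axis, 94 tumors) against the log2 slope per unit of the score in the 24 narrow tumors (y axis), 1 point per gene of 4 lists. Ak4 lies at 1.72 and 1.18 and Bnip3 at 1.41 and 0.87, and 29 of 38 HIF targets but 1 of 16 endothelial genes lie above 0 on the y axis.

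Beyond the HIF program, cell division genes were higher in score-high tumors by a small amount. Of 19 measured proliferation genes 18 were higher and none lower, with a median log2 difference of 0.40 and a range of 0.12 to 0.55. The shares over all probe sets were 9.81% higher and 11.1% lower. Mki67, the proliferation marker, had 8.71, 10.12 and 10.86 in score-high tumors and 8.66, 9.73 and 10.68 in score-low tumors (log2 difference 0.34, adjusted p = 0.00586 from limma). The groups overlapped almost fully. Top2a was higher by 0.50 and Plk1 by 0.52, and Pcna did not pass. With the array spread as a term 15 of the 19 were higher (median 0.33), with 1 array per mouse 13 were, and with the mouse as a fixed term 7 were (median 0.44). Mki67 was higher in 7 of the 13 mice. In the 24 narrow tumors none of the 19 had an unadjusted p under 0.05.

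Stress and signaling genes moved in part, where 9.81% of all probe sets were higher and 11.1% lower. Of 19 genes of the unfolded protein and amino acid response 7 were higher and 1 lower, with a median of 0.12 (5 and 1 with the spread term, 4 and 2 with the mouse as a fixed term). Ddit3 (CHOP) was higher by 0.39 and Psat1, of serine synthesis, by 0.54, while Herpud1 was lower by a log2 difference of -0.44. Of 13 immediate early genes 5 were higher, among them Fos by 0.69 and Junb by 0.36, and 2 were with the mouse as a fixed term. In lipid synthesis 5 of 15 genes were higher and 3 lower, but 1 and none with the mouse as a fixed term. The cholesterol gene Sqle and the desaturase gene Scd2 were higher by 0.45 and 0.37, and Fasn, the fatty acid synthase gene, had a difference of -0.37. Of 16 ERBB receptor and ERK output genes 3 were higher and 2 lower (1 higher with the spread term). For so short a list these counts lie close to the shares over all probe sets. The lower ones were Erbb4 with -0.82 and Egfr with -0.19, and neither passed with the array spread as a term (adjusted p = 0.153 for Erbb4 and 0.107 for Egfr).

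Btn1a1, whose product coats milk fat droplets, had 5.92, 8.62 and 12.48 in score-high tumors and 6.41, 11.81 and 13.03 in score-low tumors (log2 difference -1.85, limma adjusted p = 3.67e-04, standard error 0.40). Both groups spanned nearly the whole range, and 14 score-low tumors lay above every score-high tumor. Csn2, beta casein, had 6.37, 11.40 and 13.76 in score-high tumors and 7.14, 13.16 and 13.84 in score-low tumors (log2 difference -1.26, adjusted p = 0.0168). Of 9 milk protein genes 4 were lower, Btn1a1, Csn1s2a, Csn2 and Xdh, and none higher, with a median of -0.77. Over all probe sets 11.1% were lower and 9.81% higher. Csn3 had medians of 12.70 in score-high and 12.86 in score-low tumors and did not pass. With the spread term 3 of the 9 were lower (median -0.72), and with the mouse as a fixed term 4 were (median -1.28). With 1 array per mouse, which left out the mice with tumors in both groups, none of the 9 passed. Btn1a1 then had an adjusted p of 0.140 from limma. In the 24 narrow tumors 6 of the 9 slopes were positive, at a median of 0.17, and none had an unadjusted p under 0.05. In the main comparison the fatty acid transporter gene Cd36 (log2 difference -1.30) and Bbox1, of carnitine synthesis (-1.21), were lower as well. With 1 array per mouse 1 probe set was at least 2-fold lower under the stricter threshold, and with the mouse as a fixed term 7 were, against 35 in the main comparison. The other genes of the 15 largest decreases were Odam, Eya1, Scgb1b27, Vsnl1, Amy1, Cck, Iigp1, Npy, Cst10 and Car3, from -1.53 for Odam to -1.16 for Car3.

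Marker lists of fat, mast, muscle and T cells held lower genes and no higher ones. Of all probe sets, 11.1% were lower and 9.81% higher. Of 9 adipocyte genes 7 were lower, with a median of -0.43, but 1 was with the array spread as a term (median -0.31), 1 with the mouse as a fixed term (median -0.61) and none with 1 array per mouse (median -0.30). Their mean level was 6.22, 6.72 and 8.29 in score-high tumors and 6.44, 6.94 and 10.56 in score-low tumors, so the groups differed most in a tail of score-low tumors. Adipoq, adiponectin, had medians of 5.24 in score-high and 5.60 in score-low tumors, and 6 score-low tumors lay above all score-high tumors. All 7 measured mast cell genes were lower, with a median of -0.20, among them Cpa3 with -0.44. None passed with the array spread as a term (median -0.15), with the mouse as a fixed term (median -0.27) or with 1 array per mouse (median -0.16). The mean level of the mast cell genes was 5.12, 5.31 and 5.84 in score-high tumors and 5.13, 5.42 and 7.41 in score-low tumors. Most of these levels lie close to 5, the minimum of the filter on low signal. Of 10 skeletal muscle genes 4 were lower, among them Ckm with -0.72, at a median of -0.46. None passed with the spread term, although the median was then -0.45, nor with the mouse as a fixed term (median -0.68). The mean level of the muscle genes was 6.12, 6.39 and 9.11 in score-high tumors. It was 6.06, 6.48 and 11.94 in score-low tumors, so the groups differed most at the upper end. Of 8 T cell genes 6 were lower, with a median of -0.17. With the spread term 5 were lower (median -0.15), with 1 array per mouse 2 were (median -0.16) and with the mouse as a fixed term none was (median -0.18). Cd8a had 5.84, 6.54 and 7.92 in score-high tumors and 6.21, 6.96 and 7.84 in score-low tumors (log2 difference -0.36, adjusted p = 2.18e-04 from limma). Of 8 B and plasma cell genes 2 were lower, among them Jchain with -0.89, and 1 was with the spread term. Of 10 pericyte and smooth muscle genes 2 were higher, though none with the mouse as a fixed term, of 4 platelet genes 1 was, and none of the 3 measured red blood cell genes passed. The part of these cells in the other differences was not tested.

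Macrophage and neutrophil lists held few calls, near or under the shares over all probe sets (9.81% higher and 11.1% lower). Of 11 macrophage genes 1 was higher and 1 lower (1 and none with the spread term), and of 10 neutrophil genes 1 was higher. None of these passed with the mouse as a fixed term. The neutrophil gene was S100a8, higher by 0.39. Outside these lists, the neutrophil surface gene Cd177 was higher by 1.28 and the macrophage elastase gene Mmp12 by 1.27. Among epithelial genes, 5 of 11 luminal genes were higher and 1 was lower, with a median of 0.19. Krt7 and Cldn4 were higher by 0.63 and 0.55, Krt8 and Krt18 by 0.22 and 0.21, and the luminal transcription factor gene Gata3 was lower by a difference of -0.47. Of 10 basal genes 2 were higher, Krt17 by 0.57 and Acta2 by 0.44, and 1 was lower, while 3 were higher and none lower with the spread term and none passed with the mouse as a fixed term. With 1 array per mouse none of the 11 luminal genes passed.

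In a fit with an interaction term, none of the 35551 probe sets passed for F1 against F1BX tumors and none for FVB against F1BX tumors in limma, with 2347 and 1033 at an unadjusted p under 0.05. The lowest adjusted p-values were 0.418 and 0.879. With 7 score-high and 4 score-low F1 tumors and 6 score-high and 8 score-low FVB tumors, such differences would have to be large to pass. The Vegfa difference was 1.24 among F1BX tumors, 0.98 among F1 tumors and 1.07 among FVB tumors.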

How the data were processed

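RNA of 214 tumor arrays and 8 normal mammary glands had been hybridized to Affymetrix mouse gene 1.0 ST arrays. The authors normalized the values by RMA in Expression Console. The paper does not say whether all arrays were normalized together, and the interquartile range of the deposited arrays runs from 1.86 to 3.35. The deposited values are log2 signals of 35556 probe sets (2.25 to 14.8). Of these, 21789 carry 1 gene symbol, 1621 several and 12146 none. The number of arrays limits the precision, since array values carry no read depth.

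The score used each gene's probe set of highest mean. Log2 values were fitted with limma 3.58.1 (R 4.3.3, statmod 1.5.0) on score group and background, with mouse as a random block (consensus correlation 0.111). The p-values were adjusted by Benjamini-Hochberg over all 35556 probe sets, and the 5 of the score were set aside afterwards. A gene was read from its probe set of highest mean. The named genes are the 15 largest increases and decreases with an adjusted p under 0.05, plus members of the gene lists. Scores by background were compared with 100000 permutations in scipy 1.17.1. The fit was tested on simulated data first. Alternatives were the score without each gene, wider groups, other terms, 1 array per mouse, quantile normalization and a filter on low signal. The setting with 1 array per mouse left out mice with tumors in both groups. The 24 tumors of narrow array spread, 2 repeat arrays and the glands entered no group. The members and lists were chosen with earlier results of these data known. Tumors of different mice are separate samples, tumors of 1 mouse are not.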

Additional observations from a re-analysis of the deposited data

Results flagged for a closer look

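A value far from the others was looked for in 24 groups of 4 to 10 tumors, and 2 were flagged. The groups were the score and its 5 genes, by background and score group. Among the 8 FVB score-low tumors, P15T2 had a score of -1.21, while the others lay between -0.89 and -0.66. Among the 4 F1 score-low tumors, F04T1 had a score of -0.62, while the others lay between -0.84 and -0.81. The score itself bounds these groups, so no chance rate can be given for the flags, and F04T1 lies just inside the edge.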

How the results depend on the processing

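The 3489 higher and 3952 lower probe sets became 2150 and 1831 with the array spread as a term, 1394 and 1026 with the mouse as a fixed term, 1202 and 800 with 1 array per mouse, and 96 and 8 for the slope over the tumors between the groups, a comparison chosen after seeing the data. Under the stricter threshold 35 and 35 passed. Of the main calls, 3674 passed with the spread term, 2037 with the fixed mouse term and 1913 with 1 array per mouse, all in the same direction. The 35 higher and 35 lower probe sets of at least 2-fold became 60 and 80 when the score was made without Car9, and lower ones became 73 without Ndrg1, 23 with the spread term, 7 with the fixed mouse term and 1 with 1 array per mouse. Between the groups 13 higher and 0 lower passed that threshold in limma, with 3787 probe sets at an unadjusted p under 0.05. The causes were not tested. The setting with 1 array per mouse uses 33 score-high and 29 score-low tumors and leaves out the 13 mice with tumors in both groups. Higher calls were 46.9% of all calls, 60.04% with 1 array per mouse, 57.6% with the fixed mouse term and 92.3% between the groups. Genes that changed sign were Epas1 (-0.051 between the groups, -0.044 with the fixed mouse term), Angptl4 (0.035 without Egln3, 0.11 with 1 array per mouse, 0.0041 with the spread term), Stc1 (0.0096 with 1 array per mouse), Pecam1 (-0.013 with the fixed mouse term), Csn3 (0.032 with 1 array per mouse, 0.012 with the spread term) and Cldn4 (-0.60 between the groups, adjusted p = 0.752 from limma). Of these, Cldn4 alone had passed in the main comparison. Taking all probe sets of a score gene changed nothing, since each has 1. The fixed mouse term is the pairing by animal, over 13 mice with tumors in both groups. For the replicate numbers in the labels, no paired analysis was possible because the numbers that groups share name no shared animal.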

Other observations

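The 24 tumors of narrow array spread can be set beside the 8 normal mammary glands, as values without a test. The gland arrays were narrow too (interquartile range 1.86 to 2.36). All FVB glands and part of the F1 glands carried the transgene, the remaining F1 glands lacked it, and no gland was F1BX. The tumors set beside them were F1BX and F1. Background and transgene thus varied along with tissue, and their parts cannot be told apart here. Adm had lowest, median and highest log2 values of 7.21, 8.98 and 11.47 in these tumors and 8.88, 11.19 and 11.58 in the glands. Vegfa had 9.32, 10.01 and 11.08 in the tumors and 10.36, 10.71 and 11.56 in the glands. No tumor exceeded the highest gland for either gene. Egln3 had 8.79, 11.72 and 13.05 in the tumors and 7.61, 8.98 and 9.76 in the glands, so that 23 tumors lay above every gland, and for Bnip3 18 tumors did. The score genes thus did not order tumors and glands in 1 way.

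The 2 arrays named 035T1R and 246T1R were read as repeats of tumors 035T1 and 246T1, although the labels do not explain the R. Both gave lower scores than the first array of the tumor, and their values had a narrow spread. On the scale of the scored tumors, 035T1 scored 0.26 on the repeat array and 1.34 on the first, and 246T1 scored -1.41 on the repeat and -0.86 on the first.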
